A study of Mus musculus with 62 samples.

Results

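The genes described here are 10 transcription factors that mark neurons of the striatum: Isl1, Rarb, Pbx3, Meis2, Foxp1, Foxp2, Ebf1, Bcl11b, Sp9 and Meis1. They were chosen by name, by matching the Ensembl identifiers in the deposited count tables to these symbols, and they are 10 of the 12483 genes that the tables hold. All 10 had a row in the table of the nucleus accumbens (NAc) and prefrontal cortex (PFC), which has 11569 rows. In the table of the suprachiasmatic nucleus (SCN), which has 12047 rows, 8 had a row, and Foxp2 and Sp9 did not.

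Striatal projection neurons are GABAergic cells that arise in the embryonic ganglionic eminence and split into a direct pathway, marked by the dopamine receptor Drd1, and an indirect pathway, marked by Drd2. Factors such as Bcl11b, Foxp1 and Meis2 are switched on as these cells leave the cell cycle, while Isl1 and Ebf1 are known for the direct pathway and Sp9 for the indirect one. The retinoic acid receptor Rarb, the homeodomain factor Pbx3 and the forkhead factor Foxp2 stay on in the adult striatum, and Isl1 is also made by striatal cholinergic interneurons.

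The study exposed male and female C57BL/6J mice to circadian rhythm disruption (CRD), produced by 12 h shifts of the light/dark cycle, in adolescence or adulthood. Brain punches were taken about 4 weeks after exposure, at zeitgeber time 6 (ZT6, the middle of the light phase), from CRD mice and matched controls, where the methods name adolescent CRD only and the labels name adult CRD as well. RNA-seq libraries were sequenced from the NAc, a part of the ventral striatum (n = 26), the PFC, a cortical region (n = 17), and the SCN, the hypothalamic site of the master clock (n = 19), of 26 mice. The labels give region and mouse number. They do not give CRD, age of exposure or sex for a mouse, so each region pools CRD and control mice of both sexes, and whether adult exposure is among them is not settled by these sources. The comparisons below are between regions only. The labels do not say whether animals were pooled, but the methods state that every sample was a single animal. Each library was counted as 1 mouse.

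Totals ranged from 28879724 to 60009482 counts in the NAc, from 31216225 to 50333579 in the PFC and from 16496666 to 35389742 in the SCN. Mitochondrial and ribosomal RNA genes took 45.4 to 75.2% of all counts of NAc libraries, 49.5 to 67.2% of PFC libraries and 31.5 to 66.3% of SCN libraries. Marker genes followed the region labels. The summed level of 6 genes of striatal projection neurons was 1411 to 3147 CPM (counts per 1000000 of a library size scaled by the trimmed mean of M-values, TMM) in the NAc, against 145 to 228 CPM in the PFC, and the sum of 7 genes of cortical glutamatergic neurons was 833 to 985 CPM in the PFC. That cortical sum also reached 12.1 to 471 CPM in the NAc, with a median of 101 CPM and the highest value in the library NAc J1199. The sum of 7 genes of SCN neurons was 44.4 to 323 CPM in the SCN, lowest in SCN J1199. In the library SCN J1165, Xist, which is made from the inactive X chromosome of females, had 1403 counts, against 23 and 18 in the NAc and PFC libraries with the same mouse number, so that this SCN library went against its mouse number.

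All 10 genes are annotated as protein-coding in GENCODE M21 on GRCm38. Rarb (ENSMUSG00000017491) lies on the minus strand at chr14:16430839-16819156, and Isl1 (ENSMUSG00000042258) on the minus strand at chr13:116298281-116309689. RefSeq start regions of 300 bases (250 before the start site and 50 after it, GRCm38.p6) were found for 8 of the 10 genes, 11 regions in all. The region of Rarb is shown because it holds the direct repeat through which retinoic acid receptors act on this gene, and because genes of the retinoid pathway are compared below. Those of Isl1 and Sp9 are shown beside it as the factors with the largest difference between NAc and PFC and with a GC box, the site read by Sp factors. Capitals mark matches to the motifs searched, on either strand.
Rarb, chr14:16575427-16575726, minus strand: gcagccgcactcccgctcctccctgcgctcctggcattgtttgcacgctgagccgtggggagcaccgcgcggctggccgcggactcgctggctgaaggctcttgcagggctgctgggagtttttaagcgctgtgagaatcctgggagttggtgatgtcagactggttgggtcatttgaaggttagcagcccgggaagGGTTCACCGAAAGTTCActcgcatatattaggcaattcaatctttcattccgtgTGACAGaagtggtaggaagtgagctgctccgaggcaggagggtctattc
Isl1, chr13:116309639-116309938, minus strand: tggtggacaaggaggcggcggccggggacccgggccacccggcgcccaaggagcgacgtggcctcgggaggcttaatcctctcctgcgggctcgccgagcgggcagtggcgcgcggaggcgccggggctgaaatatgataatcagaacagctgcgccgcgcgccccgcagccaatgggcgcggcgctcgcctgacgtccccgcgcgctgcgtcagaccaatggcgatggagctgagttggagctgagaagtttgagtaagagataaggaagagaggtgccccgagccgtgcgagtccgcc
Sp9, chr2:73271676-73271975, plus strand: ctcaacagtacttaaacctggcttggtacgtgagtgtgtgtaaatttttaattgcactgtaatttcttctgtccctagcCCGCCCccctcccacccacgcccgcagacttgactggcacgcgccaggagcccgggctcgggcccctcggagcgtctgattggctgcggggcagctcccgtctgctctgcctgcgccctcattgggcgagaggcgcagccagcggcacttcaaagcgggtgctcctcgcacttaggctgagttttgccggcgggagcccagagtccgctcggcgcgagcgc

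In the Rarb region, the direct repeat, GGTTCA and AGTTCA with 5 bases between them, lay from 53 to 37 bases before the start site. These letters were found in 2 of the 32851 start regions of the whole table (0.00609%). The letters searched are those of the Rarb repeat itself, so its match was fixed in advance. The share is that of these exact half-sites and not of retinoid repeats in general. The Meis site TGACAG followed at bases 2 to 7 after the start and was found in 19.2% of all regions. The GC box GGGCGG of Sp9, printed as its complement, lay from 171 to 166 bases before the start, and 35.7% of all regions hold one. Among the other factors, 2 of the 3 start regions of Foxp1 held GC boxes and the remaining one held TGACAG. The motifs TGATTGAT (Pbx, 0.746% of regions), AGGTCA (a single retinoid half-site, 16.3%), TGTTTAC (forkhead, 3.65%) and TCCC and GGGA with 2 bases between them (Ebf, 0.904%) were not found in these letters in any of the 11 regions. The motifs do not overlap one another in the regions shown. The Isl1 region held none of the 7 motifs and had 69% G and C, against a median of 52.7% over all regions. A match describes the letters only.

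Levels are given as CPM, TMM-scaled over the genes that both tables share, so that the 3 regions stand on one scale for display. Genes were called different where the adjusted p was under 0.05 and the fold change 1.2 or more. Between the NAc and the PFC, all 10 factors were higher in the NAc, in 17 of 17 mice with both regions for each, while 23.7% of all genes tested were called higher in the NAc. For 9 of the 10, every NAc library lay above every PFC library, which held for 4.82% of all genes. The median log2 fold change of the 10 was 3.19, beside 0.02 over all 11569 genes. Punches are mixtures, and in such bulk RNA more cells of a type and more RNA per cell cannot be told apart.

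**Figure D1:**
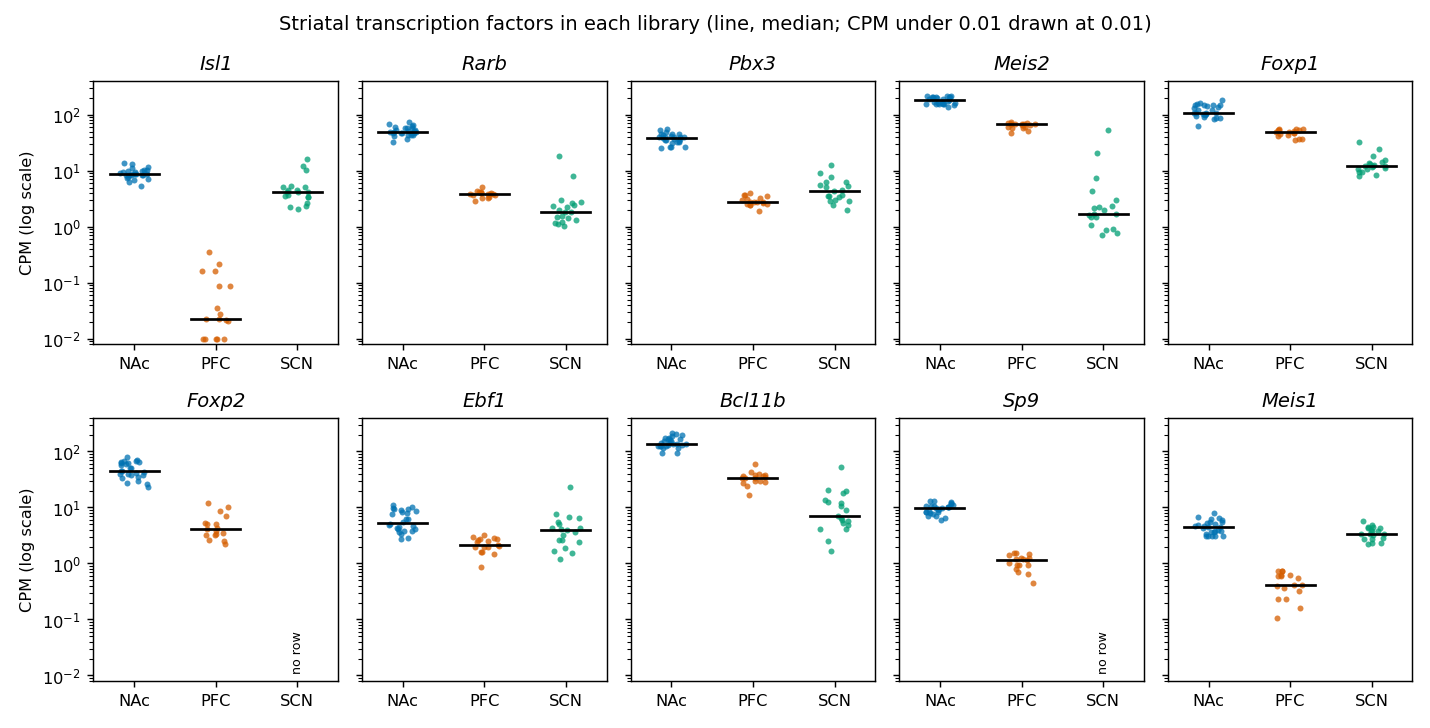
Level of each factor (CPM, log axis) in every library of the NAc (n = 26), PFC (n = 17) and SCN (n = 19). Each point is 1 library and the line is the median, and values under 0.01 are drawn at 0.01. The NAc points lie above all PFC points for every factor but Ebf1, and single SCN libraries stand far above the others for Meis2, Rarb and Bcl11b.

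Isl1, a LIM homeodomain factor, showed the largest difference of the 10 and had the log2 fold change ranked 4 among the 11569 genes. Its level in the NAc was 5.45 to 13.6 CPM, around a median of 8.86 CPM. In the PFC it was 0 to 0.348 CPM around a median of 0.0222 CPM, which stands for 0 to 16 counts per library with a median of 1. The PFC was thus close to no signal for this gene. Low genes were left out before the counts were deposited, so a gene this low in the PFC has a row only through its NAc level. For such genes, Meis1 among them, a large difference and a high rank are in part built in by that filter. The log2 fold change was 6.91 (SE 0.25, adjusted p = 7.57e-28 by edgeR's quasi-likelihood test), a fitted value that depends on how near-0 counts are treated. In the SCN, Isl1 was again present, at 2.09 to 16.6 CPM around a median of 4.19 CPM, and the near absence of its counts was thus a feature of the PFC libraries.

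Pbx3, Meis2 and Meis1 are TALE homeodomain factors, which bind DNA together as partners. Pbx3 ranged from 25.6 to 54.9 CPM in the NAc, with a median of 39.1 CPM, and from 1.94 to 4.02 CPM in the PFC, with a median of 2.78 CPM. Meis2 ranged from 137 to 220.4 CPM in the NAc (median 182 CPM) and from 47.8 to 72.9 CPM in the PFC (median 67.9 CPM). Meis1 was scarce, at 3.03 to 8.08 CPM in the NAc (median 4.52 CPM) and 0.104 to 0.745 CPM in the PFC (median 0.417 CPM). No NAc library overlapped the PFC for any of these genes, but the sizes of the differences were unlike. Pbx3 was 13.0-fold higher in the NAc (log2 3.70, SE 0.10, adjusted p = 4.93e-32), Meis1 9.84-fold (log2 3.30, SE 0.17, adjusted p = 8.28e-22) and Meis2 only 2.81-fold (log2 1.49, SE 0.06, adjusted p = 2.26e-25). Meis2 therefore had the higher PFC level of the pair of Meis genes by far, also per length, at a median of 5.64 CPM per kilobase of exon against 0.0396 for Meis1.

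Rarb encodes the retinoic acid receptor beta, a ligand-activated nuclear receptor. It ranged from 33.0 to 73.6 CPM in the NAc (median 49.7 CPM) and from 2.86 to 5.07 CPM in the PFC (median 3.88 CPM). The groups lay far apart, with a 13.5-fold difference (log2 3.75, SE 0.09, adjusted p = 5.82e-35). Of the exon bases of Rarb, 2020 of 5265 are shared with Top2b and Gm48162 on the opposite strand, and in union mode a read there counts for neither gene unless strand is used, which is not stated. Sp9 shares 270 exon bases with Cir1 in the same way, and Meis1 (1925 bases) and Foxp1 (435 bases) share bases with genes named only by Gm numbers.

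Foxp1 and Foxp2 are forkhead repressors that can pair with each other. Foxp1 ranged from 63.7 to 185 CPM in the NAc (median 108 CPM) and from 35.0 to 55.5 CPM in the PFC (median 49.9 CPM), the smallest difference of the 10 at 2.51-fold (log2 1.33, SE 0.10, adjusted p = 3.29e-16). Foxp2, which cortical neurons of the deep layers also make, ranged from 23.5 to 80.2 CPM in the NAc (median 45.2 CPM) and from 2.19 to 11.99 CPM in the PFC (median 4.04 CPM), 9.52-fold higher in the NAc (log2 3.25, SE 0.20, adjusted p = 3.78e-19). Neither gene overlapped between the regions, and Foxp2 had the wider spread within each.

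Ebf1, a helix-loop-helix factor of direct pathway neurons, was low in both regions, at 2.79 to 10.98 CPM in the NAc (median 5.31 CPM) and 0.857 to 3.26 CPM in the PFC (median 2.13 CPM). It was the one factor whose libraries overlapped, although it was higher in the NAc in every mouse with both regions, by 2.78-fold (log2 1.47, SE 0.17, adjusted p = 3.90e-10).

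Bcl11b, a zinc finger factor that striatal neurons share with neurons of cortical layer V, ranged from 92.9 to 215 CPM in the NAc (median 138 CPM) and from 16.5 to 59.5 CPM in the PFC (median 34.0 CPM). Sp9, a zinc finger factor of the Sp family, ranged from 5.91 to 12.9 CPM in the NAc (median 9.93 CPM) and from 0.451 to 1.56 CPM in the PFC (median 1.16 CPM). Both were separate between regions, Bcl11b by 4.27-fold (log2 2.096, SE 0.11, adjusted p = 2.27e-21) and Sp9 by 8.80-fold (log2 3.14, SE 0.12, adjusted p = 1.37e-26). Isl1, Rarb, Pbx3, Meis1, Foxp2 and Sp9, 6 of the 10, were called and at least 8-fold higher in the NAc, as were 0.657% of all genes. For Isl1 and Meis1 this is in part built in by the filter on low genes named above.

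Per length, the median level in the NAc ran from Bcl11b (17.1 CPM per kilobase of exon) and Meis2 (15.1) through Rarb (9.43), Foxp1 (7.85) and Pbx3 (6.40) to Foxp2 (2.76), Isl1 (2.24) and Sp9 (1.97), with Ebf1 (0.544) and Meis1 (0.429) last. Bcl11b lay at the 89.1 percentile of the genes of the table and Meis1 at the 2.98 percentile. The order of levels was not the order of the differences from the PFC, since both scarce factors (Isl1, Meis1, Sp9) and more abundant ones (Rarb, Pbx3) differed by more than 8-fold, while Ebf1, also scarce, and Meis2 did not.

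Other cell types moved with region. All 6 oligodendrocyte genes were higher in the NAc (median log2 2.14), where their sum was 601 to 1487 CPM against 129 to 409 CPM in the PFC, and all 7 cortical genes were lower in the NAc (median log2 -2.77). None of 5 microglial genes was called, and of 5 astrocyte genes 2 were lower and 3 not called. The part of these cells in the differences of the 10 factors was not tested. The genes of striatal projection neurons (6 of 6), of the direct pathway (4 of 4) and of the indirect pathway (4 of 4) were all higher in the NAc, with a median log2 fold change of 4.11, 3.94 and 5.61. The ranges of the 10 factors over 10 alternative analyses were narrow, from 6.82 to 7.04 for Isl1 and from 1.199 to 1.42 for Foxp1 on the log2 scale, and every call held. These include a fit without the filter on low counts, which equals the main one.

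**Figure D2:**
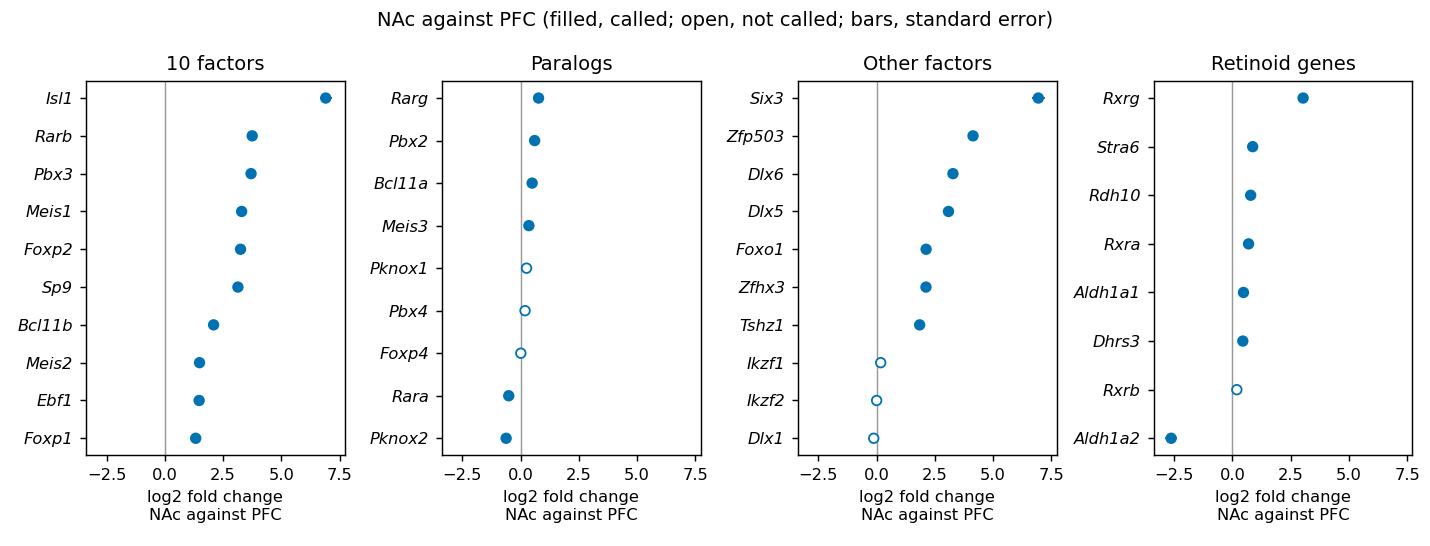
Log2 fold change between NAc (n = 26) and PFC (n = 17) for the 10 factors, their paralogs, other transcription factors of the striatum or the embryonic subpallium, and retinoid genes, for the genes reported here. Bars are standard errors, mostly smaller than the point, filled points were called and open points were not. All 10 factors lie to the right of 0, while the paralogs lie between -0.62 and 0.77.

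The paralogs of these factors had smaller log2 fold changes. Of 16 listed, 10 were tested, and 4 were higher in the NAc, 2 lower and 4 not called, with a median log2 fold change of 0.22. Of all 11569 genes, 2738 were higher and 2516 lower. Rarg was higher (log2 0.77, SE 0.11) and Rara lower (log2 -0.51, SE 0.15), while Rarb of the same receptor family differed by 3.75. Pbx2 was higher by 0.60 (SE 0.06). Bcl11a was higher by 0.49 (SE 0.06) and Meis3 by 0.35 (SE 0.08). Pknox2, a TALE factor, was lower by a log2 value of -0.62 (SE 0.07), and Foxp4 had a log2 fold change of 0.01 (SE 0.12). The difference between each factor and its paralogs was not tested.

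Of 14 further transcription factors of the striatum or the embryonic subpallium, 11 were tested, 8 were higher in the NAc and none was lower, with a median log2 fold change of 2.12. Beside them, 23.7% of all genes were higher. The homeodomain factor Six3 differed by 6.94 (SE 0.28) and the zinc finger factor Zfp503 by 4.14 (SE 0.15), followed by Dlx6 (3.28, SE 0.14) and Dlx5 (3.09, SE 0.11). Six3 was almost absent from the PFC, so, like Isl1, it had its row through the NAc. Foxo1, Zfhx3 and Tshz1 were higher by 2.13, 2.12 and 1.85. Dlx1, Ikzf1 and Ikzf2 were not called, with log2 values of -0.12, 0.18 and 0.00.

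Rarb acts as a partner of a retinoid X receptor, so genes of the retinoid pathway were set beside it. Of 14 listed, 9 were tested, and 7 were higher in the NAc and 1 lower, beside 2738 higher and 2516 lower of all 11569 genes. Rxrg, a retinoid X receptor, ranged from 34.3 to 66.7 CPM in the NAc and from 2.503 to 9.11 CPM in the PFC, with no overlap (log2 3.03, SE 0.12). Its relatives differed less, Rxra by 0.69 (SE 0.07) and Rxrb by 0.19 (SE 0.06), the latter below the fold used. The retinol importer Stra6 was higher by 0.87 (SE 0.24) and the retinol dehydrogenase Rdh10 by 0.78 (SE 0.09). The exception was Aldh1a2, an enzyme that makes retinoic acid, at 0.122 to 4.80 CPM in the NAc and 3.29 to 15.1 CPM in the PFC (log2 -2.63, SE 0.25). Aldh1a1, which has the same reaction, was higher in the NAc by 0.48 (SE 0.13).

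The SCN was set against both other regions in one edgeR fit over the 11133 genes that the tables share. Against the SCN, 7 of the 8 factors tested were higher in the NAc, where 31.0% of all genes were, and 5 did not overlap, where 7.54% of all genes did not. Meis2 had the largest difference (log2 4.94, SE 0.37), then Rarb (4.06, SE 0.23), Bcl11b (3.68, SE 0.24), Foxp1 (3.11, SE 0.13) and Pbx3 (2.94, SE 0.14), each in 19 of 19 mice with both regions. These pairs are by mouse number and include J1165, whose SCN library went against it. As these 5 factors did not overlap, the count does not depend on the pairing. Isl1 and Meis1 differed far less, by 0.80 (SE 0.19, adjusted p = 0.000112 by edgeR's quasi-likelihood test) and 0.35 (SE 0.13, adjusted p = 0.0122), and their libraries overlapped. Ebf1 was not called, at 0.32 (SE 0.22, adjusted p = 0.168, 95% interval -0.10 to 0.75). Ebf1 was called without SCN J1157 (0.68, SE 0.18, adjusted p = 0.000636), and also in the 19 mice with both regions with the mouse as a block, a fit that kept that library and left out the other NAc libraries (0.52, SE 0.23, adjusted p = 0.0467). The block fit kept mouse J1165 as well. Meis1 was not called within the upper range of mouse numbers (0.26, SE 0.17, adjusted p = 0.186), nor with the block once mouse J1165 was left out (0.26, SE 0.13, adjusted p = 0.0649).

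Between PFC and SCN, the factors differed in both directions. Meis2 (log2 3.45, SE 0.36), Foxp1 (1.79, SE 0.13) and Bcl11b (1.59, SE 0.23) were higher in the PFC, 3 of 8 beside 31.0% of all genes. Isl1 (log2 -6.10, SE 0.32), Meis1 (-2.94, SE 0.17), Ebf1 (-1.15, SE 0.25) and Pbx3 (-0.76, SE 0.15) were lower in the PFC, 4 of 8 beside 33.7% of all genes. Ebf1 was not called within the lower range of mouse numbers (-0.55, SE 0.29, adjusted p = 0.0987 by edgeR). Rarb was not called (0.31, SE 0.23, adjusted p = 0.206, 95% interval -0.13 to 0.76). SCN J1199 and SCN J1140 had the highest SCN levels of Rarb, and it was called without them (1.05, SE 0.11, adjusted p = 1.05e-12 by edgeR). Neither mouse had a PFC library, so the 12 of 12 mice in which Rarb was higher in the PFC, the fit of these 12 with the mouse as a block (1.10, SE 0.15, adjusted p = 4.08e-06) and the lower range of mouse numbers (0.75, SE 0.17, adjusted p = 0.000372) leave out the same libraries and are not separate support. Mouse J1165, whose SCN library went against its number, is among these 12. The comparisons with the SCN share its libraries, and those with the NAc or PFC share theirs.

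By median level the order was NAc, PFC, SCN for Meis2, Foxp1, Bcl11b and Rarb, with the PFC and SCN of Rarb not told apart. It was NAc, SCN, PFC for Isl1, Pbx3, Meis1 and Ebf1, with the NAc and SCN of Ebf1 not told apart.

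Within the SCN, the 8 factors varied widely between libraries. Meis2 ranged from 0.724 to 54.4 CPM around a median of 1.72 CPM, a 75.1-fold range, whereas in the NAc its range was 1.61-fold. The highest value came from SCN J1199 and the next, 20.6 CPM, from SCN J1140, while no other library was above 7.50 CPM. Rarb had the same pair on top, at 18.7 and 8.02 CPM, with the others from 1.02 to 3.02 CPM, and so did Pbx3, at 12.5 and 9.25 CPM, with the others from 2.03 to 7.59 CPM. Bcl11b (1.69 to 52.5 CPM, median 7.02 CPM) and Foxp1 (7.99 to 32.5 CPM, median 12.1 CPM) were also highest in SCN J1199, which made it the top library for 5 of 8 factors, while it was the top library for 7.52% of all genes in the SCN table.

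Genes of striatal projection neurons stood out in SCN J1199 and SCN J1140 too. Ppp1r1b, which encodes DARPP-32, reached 118 CPM in the first of them and 60.3 CPM in the second, and lay at 2.54 to 8.78 CPM in the other 17. Drd1 was at 42.0 and 25.5 CPM, beside 3.18 to 15.9 CPM, and the sum of the 6 striatal genes reached 788 and 396 CPM, beside a median of 144 CPM over the 19 libraries. Whether striatal tissue in these punches gave the levels of Meis2, Rarb and Pbx3 was not tested. Without both libraries, the log2 fold change between NAc and SCN rose from 4.94 to 6.40 (SE 0.19) for Meis2, from 4.06 to 4.80 (SE 0.12) for Rarb and from 3.68 to 4.10 (SE 0.20) for Bcl11b, and the difference between PFC and SCN from 3.45 to 4.92 (SE 0.18) for Meis2.

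Isl1, Ebf1 and Meis1 had other libraries on top. Isl1 was highest in SCN J1018, at 16.6 CPM, with 12.2 CPM in SCN J1199. Ebf1 was at 23.0 CPM in SCN J1157, with all others between 1.21 and 7.57 CPM, and Meis1, the most even of the 8 at 2.27 to 5.78 CPM, was also highest in SCN J1157. That library had the lowest share of mitochondrial and ribosomal RNA counts of the SCN (31.5%) and the largest total, and the part of this in the values was not tested.

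**Figure D3:**
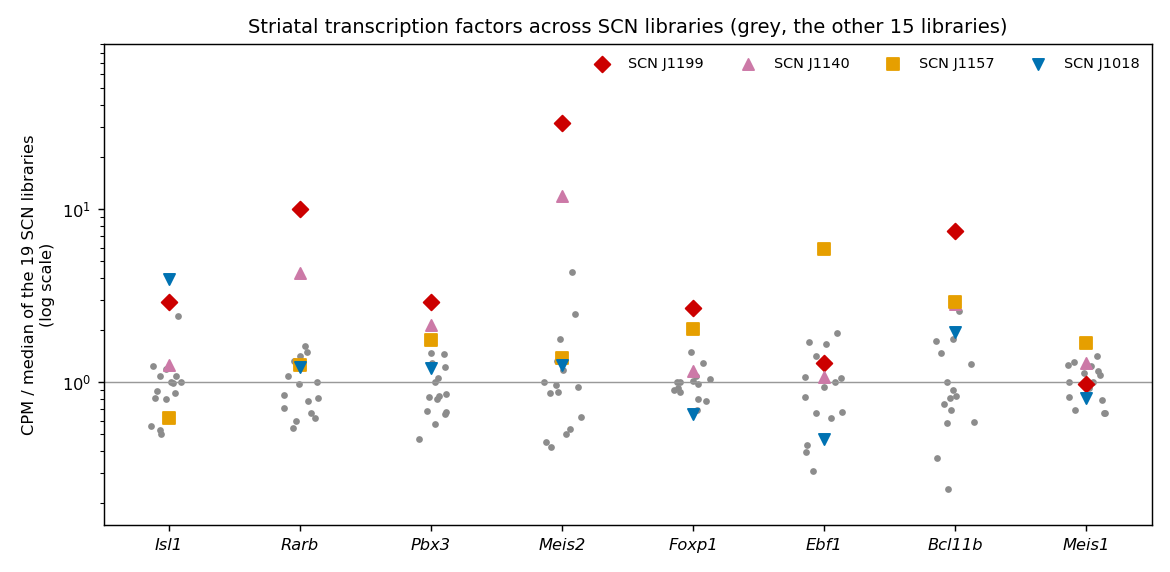
CPM of 8 factors in the 19 SCN libraries, each divided by the median of the 19 (log axis). Coloured marks are 4 named libraries and grey points the rest. SCN J1199 is the highest for Rarb, Pbx3, Meis2, Foxp1 and Bcl11b, SCN J1157 for Ebf1 and Meis1, and SCN J1018 for Isl1.

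Across the 26 NAc libraries, the covariance of the factors was measured on log2 CPM (prior count 2) over all 45 pairs, with two-sided permutation tests of 100000 resamples, whose smallest p is 1e-05, and Benjamini-Hochberg adjustment over the 45. Of the pairs, 22 passed an adjusted p of 0.05, 20 with a positive and 2 with a negative r. Among all 42104076 pairs of genes in the NAc, 17.9% had an r at least as high as the smallest called, 0.445, and 17.9% an r at least as low, so that 20 of 45 lay above that share and 2 of 45 below it. The median r of the 45 pairs was 0.35 beside -0.000583 over all pairs. All 22 called pairs kept their sign within both ranges of mouse numbers, with 6 pairs called among the 12 libraries of the lower range and 18 among the 14 of the upper.

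Rarb, Pbx3, Ebf1, Meis2 and Foxp1 rose and fell together, with all 10 pairs among them called. The closest pair was Meis2 with Ebf1 (r = 0.91, permutation p = 1e-05, rho = 0.84, permutation p = 1e-05, adjusted p = 7.5e-05), with r = 0.88 without the 2 libraries farthest from the median and r = 0.78 and 0.97 within the lower and upper range of mouse numbers. Meis2 with Foxp1 followed (r = 0.86, permutation p = 1e-05, rho = 0.79, permutation p = 1e-05, 0.81 without 2 libraries, 0.77 and 0.90 within ranges). Rarb with Pbx3 had r = 0.81 (permutation p = 1e-05, rho = 0.83, permutation p = 1e-05, 0.73 without 2 libraries, 0.87 and 0.76 within ranges). Adjusted p values were 7.5e-05 by the permutation test for both of these. The weakest of the 10 pairs was Pbx3 with Foxp1, at r = 0.48 (adjusted permutation p = 0.0317).

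Foxp1 and Meis2 also moved with Bcl11b (r = 0.82 and 0.61), and Bcl11b with Sp9 (r = 0.69, permutation p = 0.00013, rho = 0.71, permutation p = 8e-05, adjusted p = 0.000532), which in turn moved with Foxp2 (r = 0.56, adjusted permutation p = 0.00927). Bcl11b was not called with Rarb (r = 0.31) or Pbx3 (r = 0.09). Meis1 was called with Pbx3 (r = 0.73), Ebf1 (0.63), Meis2 (0.55) and Rarb (0.52). Foxp2 ran against Pbx3 (r = -0.53, adjusted permutation p = 0.0156) and against Meis1 (r = -0.46, adjusted permutation p = 0.0368), although all 3 were called higher than in the PFC. Isl1 was called with Meis1 alone (r = 0.45, permutation p = 0.0234, rho = 0.34, permutation p = 0.0942, adjusted p = 0.0479), and its r without the 2 farthest libraries was 0.34.

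**Figure D4:**
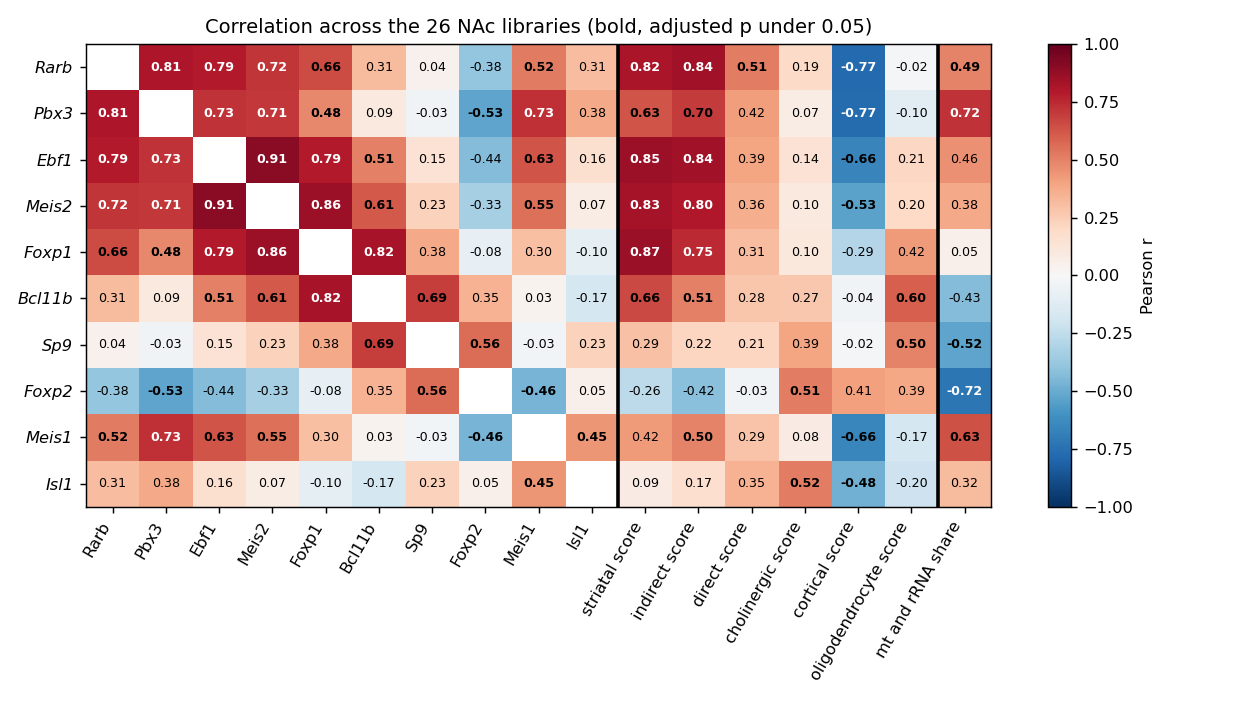
Pearson r of log2 CPM across the 26 NAc libraries, for each factor (rows) with the other factors, with 6 marker scores and with the share of mitochondrial (mt) and ribosomal RNA (rRNA) counts (columns). Bold marks an adjusted permutation p under 0.05 within each of the 3 families of relations. Rarb, Pbx3, Ebf1, Meis2 and Foxp1 form the red block at the upper left, and Foxp2 has negative values with most of them.

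Each factor was also set against 6 scores, the mean z-score of the log2 CPM of marker genes, which made 60 relations adjusted together. Of these, 24 were called. Rarb, Pbx3, Meis2, Foxp1, Ebf1 and Bcl11b followed the score of striatal projection neurons (r = 0.63 to 0.87), 6 of 10 beside 9.85% of 9177 genes, and the score of indirect pathway genes took the same 6 and Meis1 (r = 0.50 to 0.84), 7 of 10 beside 12.9%. The direct pathway score was followed by Rarb alone (r = 0.51, permutation p = 0.00773, rho = 0.34, permutation p = 0.0882, adjusted p = 0.0232), 1 of 10 beside 1.94%, with r = 0.20 without the 2 farthest libraries and r = -0.01 and 0.87 within the lower and upper range, so that it rested on few libraries. Isl1, known from direct pathway neurons, had r = 0.35 with that score, 0.09 with the striatal one and 0.17 with the indirect one. Ebf1 had r = 0.39, 0.85 and 0.84 in the same order. Sp9, known for the indirect pathway, had r = 0.22 with the indirect score and 0.21 with the direct one, neither called. The differences between these correlations were not tested.

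The cholinergic score, from only 2 measured genes, was followed by Isl1 (r = 0.52, permutation p = 0.00727, rho = 0.51, permutation p = 0.00907, adjusted p = 0.023) and Foxp2 (r = 0.51, permutation p = 0.00721, rho = 0.52, permutation p = 0.00693, adjusted p = 0.023), 2 of 10 beside 1.46% of genes. For Isl1, r was 0.32 without the 2 farthest libraries and 0.22 and 0.74 within the lower and upper range. For Foxp2, r was 0.69 without them and 0.69 and 0.42 within the ranges. Bcl11b and Sp9 followed the oligodendrocyte score (r = 0.60 and 0.50), 2 of 10 beside 9.64%.

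Genes of cortical glutamatergic neurons, taken as a score, moved against several of the factors. Whether cortical tissue in the punches gave this was not tested. The cortical score had a negative r, called, with Rarb and Pbx3 (both -0.77), Ebf1 and Meis1 (both -0.66), Meis2 (-0.53) and Isl1 (-0.48), 6 of 10 beside 21.7% of genes, and not with Foxp1 (-0.29), Bcl11b (-0.04), Sp9 (-0.02) or Foxp2 (0.41). For Isl1, the rank correlation was not called (rho = -0.33, adjusted permutation p = 0.201), and r was -0.37 without the 2 farthest libraries. With the cortical score removed by regression, 14 of the 45 pairs were called in place of 22. Meis2 with Ebf1 (r = 0.87), Meis2 with Foxp1 (0.86) and Foxp1 with Bcl11b (0.85) kept their size, whereas Rarb with Meis1 went from 0.52 to 0.02. Neither negative pair stayed called. Foxp2 with Pbx3 had r = -0.36 (adjusted permutation p = 0.163) and Foxp2 with Meis1 r = -0.28 (adjusted permutation p = 0.294). NAc J1199, with the highest cortical sum (471 CPM), was the lowest of the 26 for Isl1, Rarb and Pbx3, and NAc J1160, at 257 CPM, was the lowest for Meis2, Foxp1 and Ebf1. NAc J1140 and NAc J1158, with higher cortical sums than NAc J1160 (293 and 278 CPM), were the lowest for 0 factors.

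The share of mitochondrial and ribosomal RNA counts, a feature of the library, was tested with the log2 total count as 20 further relations. It followed Pbx3 (r = 0.72, permutation p = 6e-05, rho = 0.69, permutation p = 0.00024, adjusted p = 0.0006) and Meis1 (r = 0.63, adjusted permutation p = 0.00413) upward and Foxp2 downward (r = -0.72, permutation p = 5e-05, rho = -0.70, permutation p = 0.00013, adjusted p = 0.0006), and was also called with Sp9 (r = -0.52) and Rarb (r = 0.49). By rank, Rarb was not called with the share (rho = 0.45, adjusted permutation p = 0.0763), and its r without the 2 farthest libraries was 0.38. None of the 10 was called with the total count. With this share removed by regression, a choice made after the data had been seen, Foxp2 with Pbx3 had r = -0.01 and Foxp2 with Meis1 r = -0.01, so that neither negative pair was called, while Bcl11b with Pbx3 went from 0.09 to 0.66 (adjusted permutation p = 0.001) and Bcl11b with Rarb from 0.31 to 0.67. In all, 27 of 45 pairs were called then. The RNA share and the cortical score were not tested against each other. NAc J965, with the highest share (75.2%), had the lowest cortical score (-1.60). NAc J1140, with the lowest share (45.4%), had a cortical score of 1.19, while NAc J1017 was high in both (68.8% and 0.784). The results of both regressions are therefore not separate support.

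**Figure D5:**
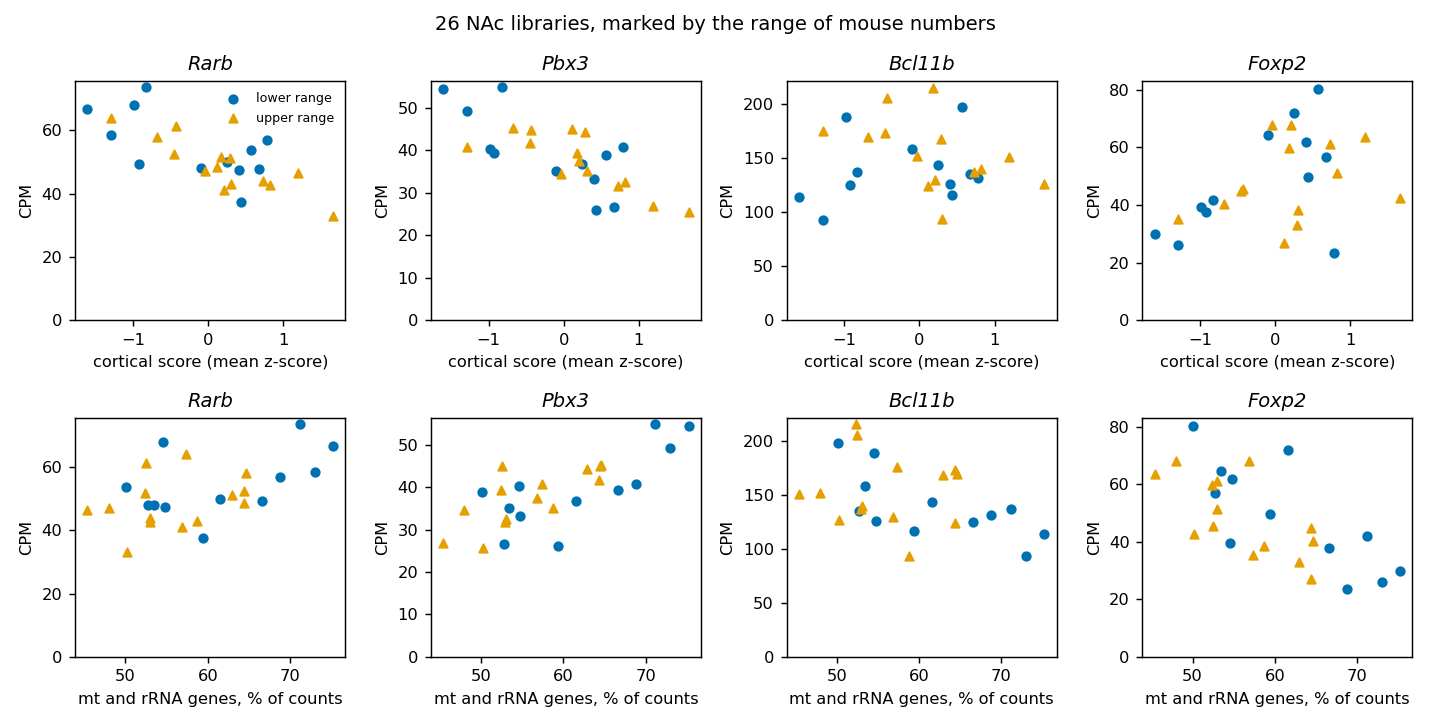
CPM of Rarb, Pbx3, Bcl11b and Foxp2 in the 26 NAc libraries against the cortical score (top) and the share of mitochondrial and ribosomal RNA counts (bottom). Circles are the lower and triangles the upper range of mouse numbers. Rarb and Pbx3 fall along the cortical score (both r = -0.77), and Foxp2 falls (r = -0.72) and Pbx3 rises (r = 0.72) along the RNA share.

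Among 9168 genes with a mean of at least 5 CPM in the NAc, the 2 with the highest r to each factor were listed as a description over the 26 libraries. Ebf1 was closest to Pde7b, a phosphodiesterase gene (r = 0.94), Bcl11b to Gas7 (0.95) and the formin gene Diaph1 (0.95), and Foxp2 to Gad2, which encodes an enzyme of GABA synthesis (0.94), and Gprin3 (0.93). Meis2 was closest to St8sia3 and Hs3st4 (both 0.93), Foxp1 to Actn2 and Syt6 (both 0.91), Rarb to Prkch (0.91) and Man1a (0.89) and Pbx3 to Ric8b and Med12l (both 0.91). The closest genes were less close for Sp9 (Plce1, 0.85), Meis1 (Mpp7, 0.81) and Isl1 (Micu2, 0.80).

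A mouse that was high in the NAc was not found to be high in the PFC. Over the 17 mice with both regions, 0 of 10 factors had a called correlation, and 1 was under an unadjusted permutation p of 0.05, Meis2 (r = 0.56, permutation p = 0.0194, rho = 0.49, permutation p = 0.0491, adjusted p = 0.194). Without the 2 farthest mice its r was 0.87, and 0.95 and 0.46 within the lower and upper range. The values of the other 9 lay between -0.18 for Rarb and 0.47 for Foxp1. A correlation that missed the threshold does not show that the regions of a mouse are unrelated.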

How the data were processed

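Gene counts of 62 libraries (NAc n = 26, PFC n = 17, SCN n = 19) were used. The authors prepared the libraries from 10 ng of RNA with a SmartSeq HT kit, used HISAT2 to align reads to GRCm38 (Ensembl) and HTSeq (union mode) to count them, and deposited these counts without normalization, in a table for NAc and PFC and another for SCN. FastQC 0.11.7 is named in the submitters' processing notes. Low genes were already left out, so a gene with no row in a table was not analysed there. The depth limits the precision of scarce genes.

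Counts were fitted with edgeR 4.0.16 (quasi-likelihood, TMM, filterByExpr) in R 4.3.3, for NAc and PFC in their own table and for the SCN in one fit of the 11133 shared genes. Calls needed a fold change of 1.2 or more and an adjusted p (Benjamini-Hochberg) under 0.05, as in the study. In simulated counts, all 200 genes changed 2-fold were recovered in each comparison, with 7 (NAc against PFC), 9 (NAc against SCN) and 13 (PFC against SCN) others called. The changed genes were drawn from well-counted ones, every gene had the same dispersion, and no mouse, batch or outlying library was simulated. These rates therefore check the fit and do not give those for scarce genes or uneven libraries. Scores left out genes with a mean under 1 CPM. Correlations and figures used Python 3.11.15, numpy 2.4.6, pandas 2.3.3 and scipy 1.17.1. By the labels, regions of one mouse number come from one animal, and they were paired in the block alternative. SCN J1165 went against its mouse number, and the block was repeated without that mouse. The correlation of their deviations in NAc and PFC was -0.449 to 0.272 (median 0.00606), over 0.1 in 7 of 17 mice. Mouse numbers up to J1021 (lower range: 12 NAc, 7 PFC, 7 SCN) and from J1140 (upper range: 14, 10 and 12) were treated as possible batches. The labels do not say what the ranges are. No libraries were duplicates, with a lowest chi-square per gene of 13.1.

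The members, gene lists and tests were chosen with earlier results of these data known. The genes named are the 10 factors, their paralogs, other subpallial factors, retinoid genes, marker genes and the 2 genes closest to each factor in the NAc. SCN J1199, SCN J1140, SCN J1157, SCN J1018, NAc J1199, NAc J1160, NAc J1140, NAc J1158, NAc J965, NAc J1017 and Xist were singled out after their values were seen. Some genes of these lists enter the counts but are not reported here by name. No table held columns of other samples.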

Additional observations from a re-analysis of the deposited data

How the results depend on the processing

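The 10 factors called between NAc and PFC were 10 under each of 10 alternatives (DESeq2 1.42.0, its size factors, filters, each range of mouse numbers, the mice with both regions, no mitochondrial or ribosomal RNA genes, without NAc J1159, and the mouse as a block), and all 100 of their values kept direction and call. The main filter removed none of the 11569 genes, so the fit without it was the same and its 10 values were fixed in advance. Genes called in all numbered 5254, and 4984 to 5743 under the alternatives. With the mouse number as a replicate block, which pairs regions of one animal, 5681 genes were called between NAc and PFC (5743 in the same mice unblocked), 7039 between NAc and SCN and 7153 between PFC and SCN, and the factors called were 10 of 10, 8 of 8 and 8 of 8. Calls of factors in these block fits differed from the main ones for Ebf1 and Rarb only, given with the SCN. Once mouse J1165 was left out of the block, Meis1 lost its call between NAc and SCN. Block fits also leave out the libraries of mice without both regions, SCN J1199 and SCN J1140 among them for the PFC. The part of the block was thus not tested there. Between NAc and SCN, 74 of 80 values kept their call, 4 became called and 2 were lost. Between PFC and SCN, 75 kept it, 4 became called and 1 was lost. The 22 pairs called in the NAc were 6 in the lower range of mouse numbers, of 12 libraries, 14 with the cortical score removed, and 18 to 27 otherwise. The 24 relations with scores were 10 in the lower range and 19 to 24 otherwise, and that of Rarb with the direct pathway score turned to r = -0.0096 there. The 0 relations between NAc and PFC of one mouse became 1 in the lower range and 1 without the 2 farthest mice, Meis2 in both. The lower range holds 12 NAc libraries and the upper range 14, and the cause of these differences was not tested. Leaving out SCN J1157, removing the RNA share and leaving out mouse J1165 from the block were alternatives chosen after seeing the data. Depth limits Isl1 and Meis1 in the PFC, at medians of 1 and 20 counts.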

Other observations

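Zfhx3, a homeobox factor known from the SCN, ranged from 30.0 to 217 CPM in the SCN, from 5.35 to 26.8 CPM in the NAc and from 1.02 to 5.49 CPM in the PFC, so that it was lower in the NAc than in the SCN (log2 -2.42, SE 0.17) while higher than in the PFC. Six3 had the same order, with 14.6 to 75.5 CPM in the SCN and 6.67 to 18.9 CPM in the NAc (log2 -1.33, SE 0.18), and at most 0.419 CPM in the PFC. Dlx1 was lower in the NAc than in the SCN (log2 -2.55, SE 0.17). Of the 10 such factors tested between NAc and SCN, 5 were higher in the NAc, 4 lower and 1 not called, beside 3455 higher and 3680 lower of all 11133 genes.

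Of 8 retinoid genes tested between NAc and SCN, 2 were higher in the NAc, 4 lower and 2 not called, beside 3455 higher and 3680 lower of all 11133 genes. Rxrg was higher in the NAc than in the SCN (log2 2.61, SE 0.13), while Rxra (log2 -0.82, SE 0.07), Aldh1a1 (-1.19, SE 0.16), Aldh1a2 (-1.22, SE 0.32) and Rdh10 (-0.50, SE 0.10) were lower. Aldh1a2 reached 20.6 CPM in SCN J1199, beside a median of 1.65 CPM over the 19 SCN libraries, and its highest NAc value, 4.80 CPM, came from NAc J1199 of the same mouse number. Among the paralogs, Foxp4 was lower in the NAc than in the SCN (log2 -1.06, SE 0.13), and Bcl11a (2.02, SE 0.10) and Pknox2 (1.13, SE 0.09) were higher.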
